A study of Mus musculus with 23 samples.

Results

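The 10 genes described here encode glucose transporters and enzymes of glycolysis, and their transcripts were followed through the first cleavage of the mouse embryo. They were chosen by name as the transporters Slc2a1 and Slc2a3, the hexokinases Hk1 and Hk2, the upper-pathway enzymes Gpi1 and Pfkp, the lower-pathway enzymes Pgk1 and Eno1, and the lactate dehydrogenases Ldha and Ldhb. All 10 were found among 22619 named genes in the files. Their levels were summed per gene as FPKM, which scales reads to transcript length and library size and so gives levels per length.

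Glycolysis splits glucose into pyruvate, and lactate dehydrogenase interconverts pyruvate and lactate. The cleaving mouse embryo is known to live on pyruvate and lactate at first and to use glucose as its main fuel only in later preimplantation stages. The transcripts of the zygote are mostly inherited from the oocyte, and they are broken down while the embryo's own genome becomes active around the 2-cell stage.

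The labels give the strain as B6D2F1 (C57BL/6xDBA/2), and in the methods this is the strain of the females, while sperm was taken from C57BL/6 males. Immature germinal vesicle oocytes were injected with a control siRNA (siCtrl) or with an siRNA pool against Etv5, Mlx or Rfx1, matured in vitro, fertilized, and collected as zygotes or 2-cell embryos, at 14 and 36 h post fertilization by the labels and at somewhat later times by the study's methods. The labels name in vitro fertilization and the methods name sperm injection. Each siRNA had 3 libraries at each stage, except siEtv5 with 2 at the 2-cell stage, and all embryos, controls included, went through injection and in vitro maturation. Knockdown (KD) by siRNA acts on RNA and leaves protein stored in the oocyte. MLX is the partner of glucose-sensing factors at E-boxes, which are known to act on glycolytic and thioredoxin-interacting protein genes, ETV5 is an ETS factor and RFX1 binds X-boxes. The methods describe the RNA-seq as repeated experiments but the labels do not tie a library to an experiment or a collection of embryos, so the tests weigh differences against a spread among libraries that may be technical.

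Aligned bases ran from 404 to 991 Mb per library, except in siRfx1 2-cell embryos with 119 to 174 Mb, where 7378 to 8071 genes reached 1 FPKM against 10567 to 10729 in siCtrl 2-cell embryos. The stages matched their labels by 7 2-cell markers, which summed to 17.6 to 51.0 FPKM in zygotes and 67.2 to 824 FPKM in 2-cell embryos. Of these 7, 2 were listed at 0 in every library. Another, Gm5039, was called higher in 2-cell embryos of 1 siRNA and lower in those of 1 siRNA. The sums of 8 oocyte and zygote markers overlapped, at 5406 to 18543 FPKM in zygotes and 2468 to 6911 FPKM in 2-cell embryos. Of the siRNA targets, Etv5 was called lower in siEtv5 2-cell embryos, Mlx and Rfx1, each with its own siRNA, were lower in every KD library than in every siCtrl library in zygotes, without passing the test over all genes, and Mlx overlapped between siMlx and siCtrl 2-cell embryos. Rfx1 was also below every control library in siMlx zygotes, siMlx 2-cell embryos and siEtv5 2-cell embryos, and Etv5 in siRfx1 2-cell embryos, without a call. Cumulus and granulosa cells, which surround the oocyte and are strongly glycolytic, were checked with 12 markers. Their summed level was 2.21 to 9.10 FPKM in zygotes and 0 to 20.7 FPKM in 2-cell embryos, 6 of the 12 never reached 1 FPKM, and 3 were listed at 0 in every library. Their part in the results was not tested.

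FPKM is a share of a library, so that a fall of a transcript and a rise of the rest cannot be told apart, nor can less RNA per embryo. The libraries of a comparison were rescaled to a common median ratio, which does not settle this. Differences below are log2 differences of rescaled FPKM plus 1 from limma, with the standard error (SE) and the Benjamini-Hochberg adjusted p over all genes tested, and they understate the change of low genes. A call needed a fold above 2 with an adjusted p under 0.05, and a gene was tested if its mean over the compared libraries reached 1 rescaled FPKM. A value of 0 is given as listed, since it may be a failed estimate.

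The 300 bases before the annotated start are shown for the 2 pairs of members that moved in opposite directions between the stages, with the Ldha start that holds E-boxes, read from mm9 at the RefSeq starts in the files and written 5′ to 3′ on the strand of the gene. Capitals mark matches to CACGTG, the E-box.

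Slc2a1 (plus strand, chr4:118781050-118781349): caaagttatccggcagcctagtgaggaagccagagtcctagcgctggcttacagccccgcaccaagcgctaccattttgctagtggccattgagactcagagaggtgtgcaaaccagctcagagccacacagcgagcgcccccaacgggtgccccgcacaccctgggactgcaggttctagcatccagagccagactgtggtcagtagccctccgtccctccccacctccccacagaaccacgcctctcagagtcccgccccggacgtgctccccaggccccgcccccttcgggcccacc

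Slc2a3 (minus strand, chr6:122692764-122693063): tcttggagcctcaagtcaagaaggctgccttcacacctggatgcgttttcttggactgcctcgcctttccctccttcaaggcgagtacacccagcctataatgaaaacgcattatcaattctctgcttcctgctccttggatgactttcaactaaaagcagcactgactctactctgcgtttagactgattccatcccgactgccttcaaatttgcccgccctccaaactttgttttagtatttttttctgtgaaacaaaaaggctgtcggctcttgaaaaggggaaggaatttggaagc

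Ldha (plus strand, chr7:54100874-54101173, transcript NM_010699): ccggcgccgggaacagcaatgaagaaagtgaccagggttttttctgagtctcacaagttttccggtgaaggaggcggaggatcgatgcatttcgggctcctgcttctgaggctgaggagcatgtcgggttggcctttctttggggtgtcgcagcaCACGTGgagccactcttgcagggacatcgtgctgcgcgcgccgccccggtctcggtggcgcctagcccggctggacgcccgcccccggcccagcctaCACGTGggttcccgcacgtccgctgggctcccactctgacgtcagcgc

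Ldhb (minus strand, chr6:142456464-142456763): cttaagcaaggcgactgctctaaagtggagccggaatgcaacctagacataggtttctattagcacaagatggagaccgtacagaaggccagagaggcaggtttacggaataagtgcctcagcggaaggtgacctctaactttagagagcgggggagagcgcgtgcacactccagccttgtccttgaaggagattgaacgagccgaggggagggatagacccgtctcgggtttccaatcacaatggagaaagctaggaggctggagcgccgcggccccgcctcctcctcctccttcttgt

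The windows of Slc2a1 and of Ldha transcript NM_010699, which is listed at 0 in every library, were GC-rich, at 64.7% and 65% against a median of 54.7% over 24939 windows, the Ldha start whose transcript carries the FPKM (NM_001136069) lay near it at 56.3%, as did Ldhb at 55.7%, and Slc2a3 was at 46.3%. The letters searched on both strands were CACGTG, a pair of CACGTG with 5 bases between, GTTGCC, which is part of the X-box, and CCGGAAG, a form of the ETS site. The pair would overlap the single E-box. The window of Ldha transcript NM_010699 held CACGTG at 2 places, starting 145 and 48 bases before the start, and the other 11 windows of the members held none of these letters. CACGTG was found in 7.53% of all windows, GTTGCC in 11.2%, CCGGAAG in 9.64%, and the pair in 0 of 24939. The pair was searched as exact letters and found in no window at all, so its absence from the members tells nothing about them. These matches describe letters only.

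The glucose transporter transcripts turned over between the stages, from Slc2a1 to Slc2a3. Slc2a1 (mm9 chromosome 4, 118781350 to 118809934, plus strand), which encodes the widely expressed transporter GLUT1, was at 17.1, 16.5 and 19.6 FPKM in the siCtrl zygote libraries and at 5.15, 4.56 and 1.51 FPKM in the siCtrl 2-cell libraries. The groups did not overlap, and the log2 difference was -2.29 (SE 0.36, adjusted p = 6.1e-04 from limma). Slc2a3 (chromosome 6, 122677827 to 122692763, minus strand), which encodes the high-affinity transporter GLUT3 known from neurons and the early embryo, was at 0.226, 0 and 0 FPKM in siCtrl zygotes and at 11.1, 13.3 and 20.5 FPKM in siCtrl 2-cell embryos. Its log2 difference was 3.71 (SE 0.30, adjusted p = 2.0e-05 from limma).

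Over all 12 zygote libraries Slc2a3 was listed at 0 in 10 and reached at most 0.226 FPKM, which rests on 535 aligned bases or fewer, while the lowest of the 11 2-cell libraries was at 1.36 FPKM. The summed level of both transporters was 17.8 ± 1.60 FPKM in siCtrl zygotes and 18.7 ± 2.97 FPKM in siCtrl 2-cell embryos (SD, n = 3 each). Slc2a3 made up 0 to 1.3% of that sum in zygotes and 40.2 to 100% in 2-cell embryos. Thus the total stayed within the spread of these libraries while its makeup turned over, which is a description with no test.

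**Figure D1:**
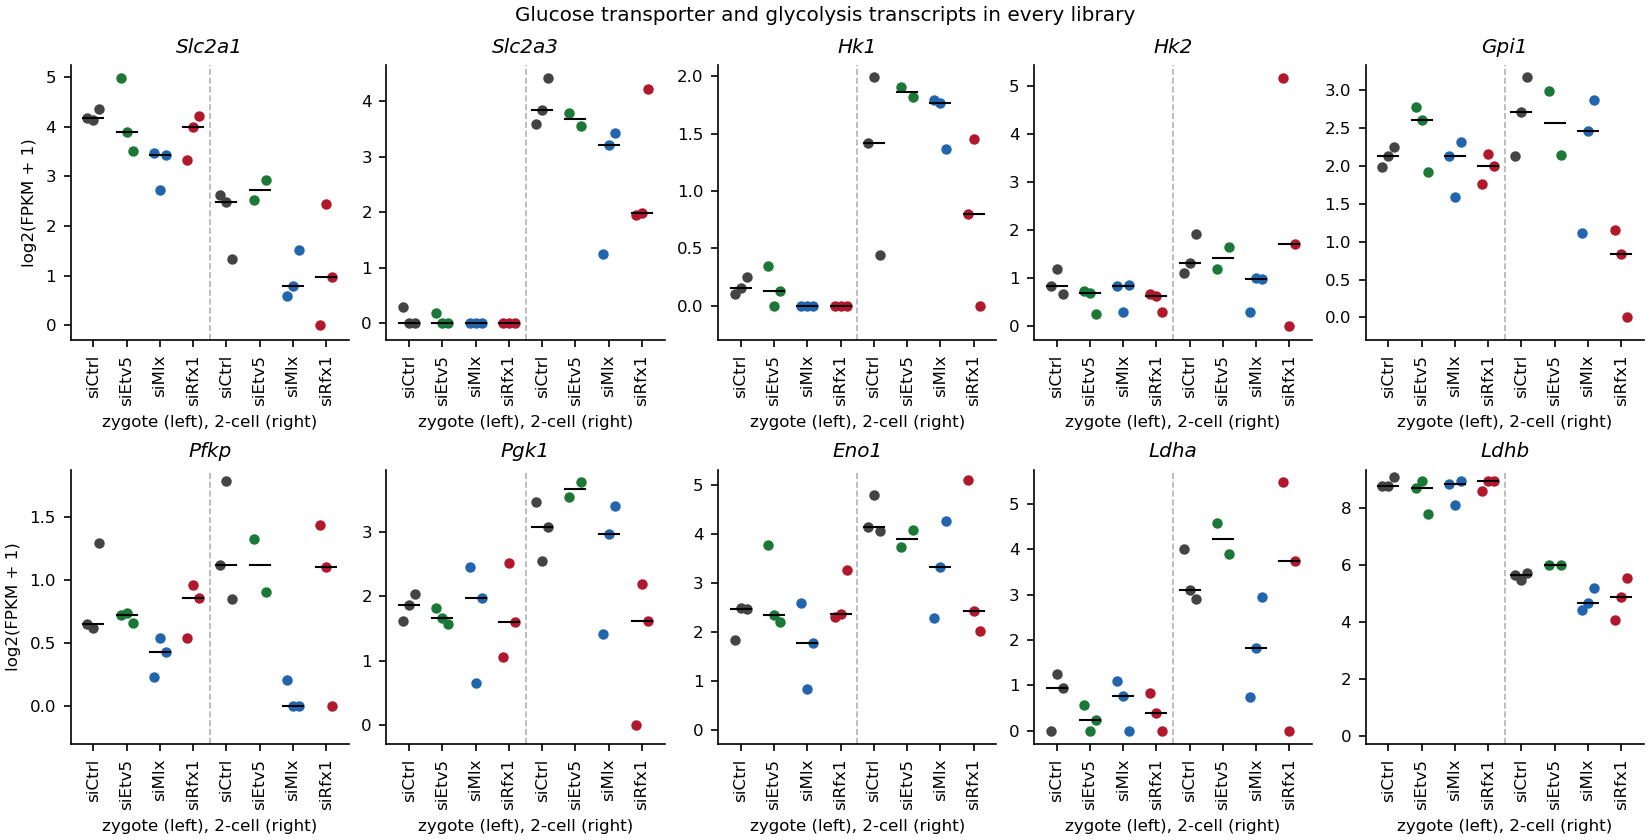
Level of each of the 10 genes in every library, as log2(FPKM + 1) of the deposited FPKM on the y axis, with zygote groups left and 2-cell groups right of the dashed line; points are libraries, colours the siRNA and short lines the median. Slc2a1 and Ldhb sit higher on the left, Slc2a3 lies at or near 0 on the left and above 1 on the right, and the siRfx1 2-cell points are spread most widely for Hk2 and Ldha.

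The hexokinases, which trap glucose in the cell by phosphorylation, were scarce at both stages. Hk1 (chromosome 10, 61731603 to 61842656, minus strand), the hexokinase of most tissues, was listed at 0 in 7 of 12 zygote libraries and at no more than 0.271 FPKM in the others. In siCtrl 2-cell embryos it was at 1.67, 2.99 and 0.360 FPKM, all above the siCtrl zygotes at 0.0714, 0.114 and 0.191 FPKM, but its mean over the 6 libraries stayed under the filter and it was not tested there. Hk2 (chromosome 6, 82675021 to 82724448, minus strand), the insulin-regulated form of muscle and many tumours, was at 0.763, 1.25 and 0.574 FPKM in siCtrl zygotes and at 1.13, 1.46 and 2.76 FPKM in siCtrl 2-cell embryos. These ranges overlapped, with a log2 difference of 0.41 (SE 0.32, adjusted p = 0.28 from limma).

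The upper-pathway enzymes were not called between the stages in control embryos. Gpi1 (chromosome 7, 34986346 to 35015324, minus strand), glucose phosphate isomerase, was at 3.36 ± 0.405 FPKM in siCtrl zygotes and 5.65 ± 2.32 FPKM in siCtrl 2-cell embryos (SD, n = 3 each), with a log2 difference of 0.34 and a 95% interval of -0.37 to 1.06. Pfkp (chromosome 13, 6579120 to 6647970, minus strand), the platelet form of phosphofructokinase, the committed step, was at 0.858 ± 0.524 and 1.48 ± 0.867 FPKM, with a difference of 0.27 and an interval of -0.56 to 1.10. Neither passed the test (adjusted p = 0.34 and 0.52 from limma), and a 2-fold rise lies within both intervals. The end of Pfkp overlaps Pitrm1 on the opposite strand by 276 bases, and the libraries carry no strand.

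Of the lower-pathway enzymes, Eno1 rose and Pgk1 missed the fold that a call needs. Eno1 (chromosome 4, 149611306 to 149622982, plus strand), the enolase of most cells, was at 2.57, 4.6 and 4.57 FPKM in siCtrl zygotes and at 16.9, 26.7 and 15.8 FPKM in siCtrl 2-cell embryos, a log2 difference of 1.85 (SE 0.31, adjusted p = 9.1e-04 from limma). Pgk1 (chromosome X, 103382463 to 103399038, plus strand), phosphoglycerate kinase, which makes the first ATP of the pathway, was at 2.05, 2.64 and 3.11 FPKM in siCtrl zygotes and at 10.1, 4.86 and 7.39 FPKM in siCtrl 2-cell embryos. Its difference of 0.98 (SE 0.30, adjusted p = 0.019 from limma) lay just under a fold of 2, although every 2-cell library was above every zygote library and the fold of the mean rescaled FPKM was 2.39. It was called with a pseudocount of 0.1 (1.19, adjusted p = 0.029 from limma), with the FPKM as deposited (1.19, 0.0083), and without zygote replicate 3, 2-cell replicate 2 or 2-cell replicate 3 (1.04, 1.26 and 1.01).

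Both genes share sequence with other places in the genome. Most of the Eno1 transcript aligned at 95% identity or more to 2 other places, and of Pgk1 to 2, and the closest were 99.6 and 99.7% identical. One of the Eno1 places is annotated as Gm5506 and was given 5.42, 5.08 and 5.07 FPKM in siCtrl zygotes and 8.58, 17.2 and 11.4 FPKM in siCtrl 2-cell embryos, so that the level of Eno1 itself is uncertain. The files place Gm5506 over the exons of Eno1 as well and list it at 0 there in every library. With Gm5506 added to Eno1, the 2-cell minus zygote difference in siCtrl embryos was 1.44 (SE 0.26, adjusted p = 0.0015 from limma), an addition made after the values were seen. Ldhb had 1 such place at 97.9% identity, and Ldha had none at 95% but 24 at 80% or more.

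Lactate dehydrogenase transcripts showed the highest level and the largest fall among the members. Ldhb (chromosome 6, 142438769 to 142456463, minus strand), the heart-type subunit of lactate dehydrogenase, was at 435, 438 and 551 FPKM in siCtrl zygotes, where its mean of 475 FPKM ranked 93 of 22619 genes. In siCtrl 2-cell embryos it was at 49.8, 43.4 and 51.4 FPKM, with a mean rank of 1817. The groups were far apart, and the log2 difference was -3.52 (SE 0.16, adjusted p = 3.6e-06 from limma), or 11.8-fold lower in rescaled FPKM.

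Ldha (chromosome 7, 54101174 to 54110997, plus strand), the muscle-type subunit, moved the other way. It was at 0, 1.36 and 0.910 FPKM in siCtrl zygotes and at 15.1, 7.60 and 6.45 FPKM in siCtrl 2-cell embryos, a log2 difference of 2.43 (SE 0.44, adjusted p = 0.0014 from limma). Unlike the transporters, the lactate dehydrogenase pair did not keep its sum, which was 475 ± 66.0 FPKM in siCtrl zygotes and 57.9 ± 6.96 FPKM in siCtrl 2-cell embryos (SD, n = 3 each). Ldhb made up 99.7 to 100% of the pair in the 12 zygote libraries and 76.8, 85.1 and 88.8% in the siCtrl 2-cell libraries.

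**Figure D2:**
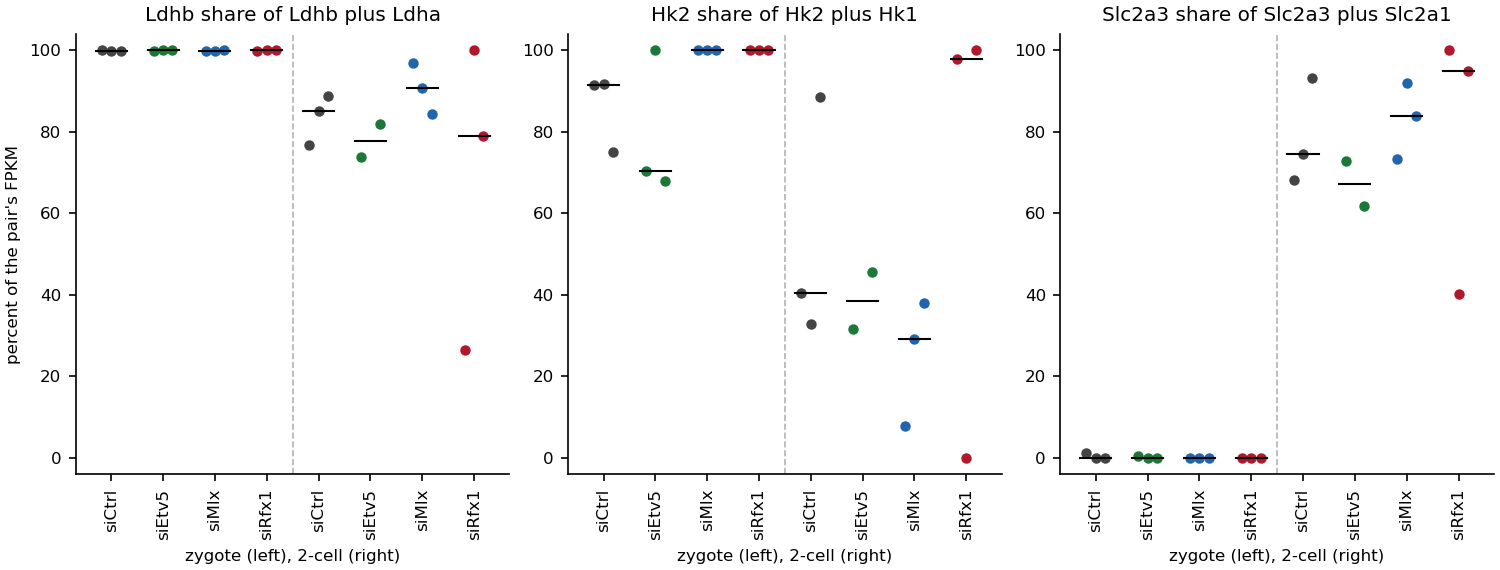
Share of one member of a pair in the summed FPKM of both, in percent on the y axis, for Ldhb, Hk2 and Slc2a3 in every library of the 8 groups on the x axis; points are libraries and short lines the median. Ldhb stays at 99.7% or above in zygotes and spreads from 26.5 to 100% in 2-cell embryos, Hk2 has a median of 100% in zygotes and 38.1% in 2-cell embryos, and Slc2a3 goes from at most 1.3% to at least 40.2%.

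The hexokinase pair is given as a description on low levels. Its sum was 0.989 ± 0.329 FPKM in siCtrl zygotes and 3.45 ± 0.875 FPKM in siCtrl 2-cell embryos (SD, n = 3 each). The siCtrl shares of Hk2 overlapped between the stages, at 91.4, 91.7 and 75.1% in zygotes and 40.3, 32.8 and 88.4% in 2-cell embryos. Over all siRNAs, Hk2 made up 67.8 to 100% of the pair in zygotes, where the sum was 0.212 to 1.37 FPKM. Its median share over all 2-cell embryos was 38.1%, with a range of 0 to 100%.

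The files assign Ldha to transcript NM_001136069 and Hk1 to NM_001146100 in every library with a value, while Ldha NM_010699 and Hk1 NM_010438 are listed at 0 throughout. In Ldha the bases nearer the 3′ end than the 5′ end took 97.0 to 100% of the covered bases, taking coverage as even within an exon, and its transcripts differ at the 5′ end, so these values do not show which start was used. Reverse transcription was primed at the poly(A) tail, and for Ldhb in the 2-cell libraries the 3′ share was also 98.3 to 100%, against 73.6 to 99.4% in zygotes. For Slc2a1 it was 55.4 to 87.4% in zygotes and 90.2 to 100% in 2-cell embryos, without overlap, while the stages overlapped for Ldhb. The part of this in the stage differences was not tested.

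Of the 9 members tested between siCtrl zygotes and siCtrl 2-cell embryos, 3 were called higher and 2 lower, or 5 in all. This stands beside 7085 of 11094 genes called in that comparison, which is 63.9% (37.0% higher and 26.9% lower), so the number called is no feature of these genes. The median log2 difference was 0.41 over the 9 members and 0.27 over all genes tested. Slc2a3 and Ldha passed the filter only through their 2-cell libraries, so that they could hardly be tested without being higher there. The same holds for these genes within the other siRNAs and for every gene below that is listed at or below 1 rescaled FPKM in the lower stage of a comparison, so that their levels carry the description and their calls add little to it.

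The stage comparison was repeated within each siRNA, on libraries that the 4 comparisons do not share. Slc2a1 was called lower and Slc2a3 higher in all 4, and Ldhb was called lower in all 4. Within siEtv5, 6 of 8 members tested were called (60.9% of all genes, 37.9% higher and 23.0% lower), with Slc2a3, Hk1, Pgk1 and Ldha higher and Slc2a1 and Ldhb lower. Within siMlx it was 3 of 7 (64.5% of all genes, 35.4% higher and 29.1% lower), with Slc2a3 higher and Slc2a1 and Ldhb lower. Within siRfx1 it was 4 of 8 (48.4% of all genes, 18.7% higher and 29.7% lower), with Slc2a3 higher and Slc2a1, Ldhb and Gpi1 lower.

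Slc2a3, which again passed the filter only through its 2-cell libraries, had differences of 3.45 within siEtv5 (SE 0.25, adjusted p = 1.2e-04 from limma), 2.43 within siMlx (SE 0.48, adjusted p = 0.0020) and 2.60 within siRfx1 (SE 0.65, adjusted p = 0.017). Slc2a1 had differences of -1.63, -2.53 and -2.88 in the same order (adjusted p = 0.017, 2.4e-04 and 0.011 from limma). Ldhb had differences of -2.74, -4.25 and -4.24 (adjusted p = 0.0011, 2.0e-05 and 5.8e-04 from limma). The Slc2a1 call within siEtv5 ended without either 2-cell siEtv5 replicate (adjusted p = 0.19 without replicate 1 and 0.12 without replicate 2, which treats the lone library as no more variable than the zygotes). Within siRfx1, the Slc2a1 call ended without zygote replicate 2 or 3 (adjusted p = 0.052 and 0.056 from limma) and the Slc2a3 call without zygote replicate 1, 2 or 3 (0.067, 0.067 and 0.069). Gpi1 within siRfx1 rests on 609 aligned bases or fewer in the 2-cell libraries, against 4050 to 9060 in zygotes. Its difference was -1.42 (SE 0.39, adjusted p = 0.025 from limma), and its call also ended without zygote replicate 1, 2 or 3 (0.052, 0.078 and 0.070). Ldhb was called in each of these fits.

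Ldha was at 22.8 and 14.0 FPKM in the siEtv5 2-cell libraries and at 0.484, 0 and 0.181 FPKM in the siEtv5 zygote libraries, a log2 difference of 3.8 (SE 0.33, adjusted p = 1.9e-04 from limma). Within siMlx its difference was 0.98 (adjusted p = 0.12 from limma), with 2-cell libraries at 0.668, 2.52 and 6.67 FPKM that overlapped zygotes at 1.15, 0.696 and 0 FPKM, and without 2-cell siMlx replicate 1 it was 1.52 (adjusted p = 0.024 from limma). Within siRfx1 the 2-cell libraries stood at 43.8, 0 and 12.3 FPKM (log2 difference 2.55, adjusted p = 0.16 from limma), and without replicate 2, the library listed at 0, the difference was 4.07 (adjusted p = 0.0050 from limma).

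Hk1 passed the filter within siEtv5 through its 2-cell libraries, and was called higher there, from 0.271, 0 and 0.0905 FPKM to 2.75 and 2.53 FPKM (log2 difference 1.58, SE 0.24, adjusted p = 0.0016 from limma). Pgk1 rose there from 2.20 ± 0.281 FPKM (SD, n = 3) to 10.6 and 12.7 FPKM, by 1.76 (SE 0.27, adjusted p = 0.0016 from limma). Eno1 differed by 0.89, 1.26 and 0.34 within siEtv5, siMlx and siRfx1 (adjusted p = 0.15, 0.062 and 0.77 from limma). Without zygote siEtv5 replicate 1, which was at 12.8 FPKM against 4.12 and 3.60 FPKM in its group, the siEtv5 difference was 1.32 (adjusted p = 0.018 from limma).

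**Figure D3:**
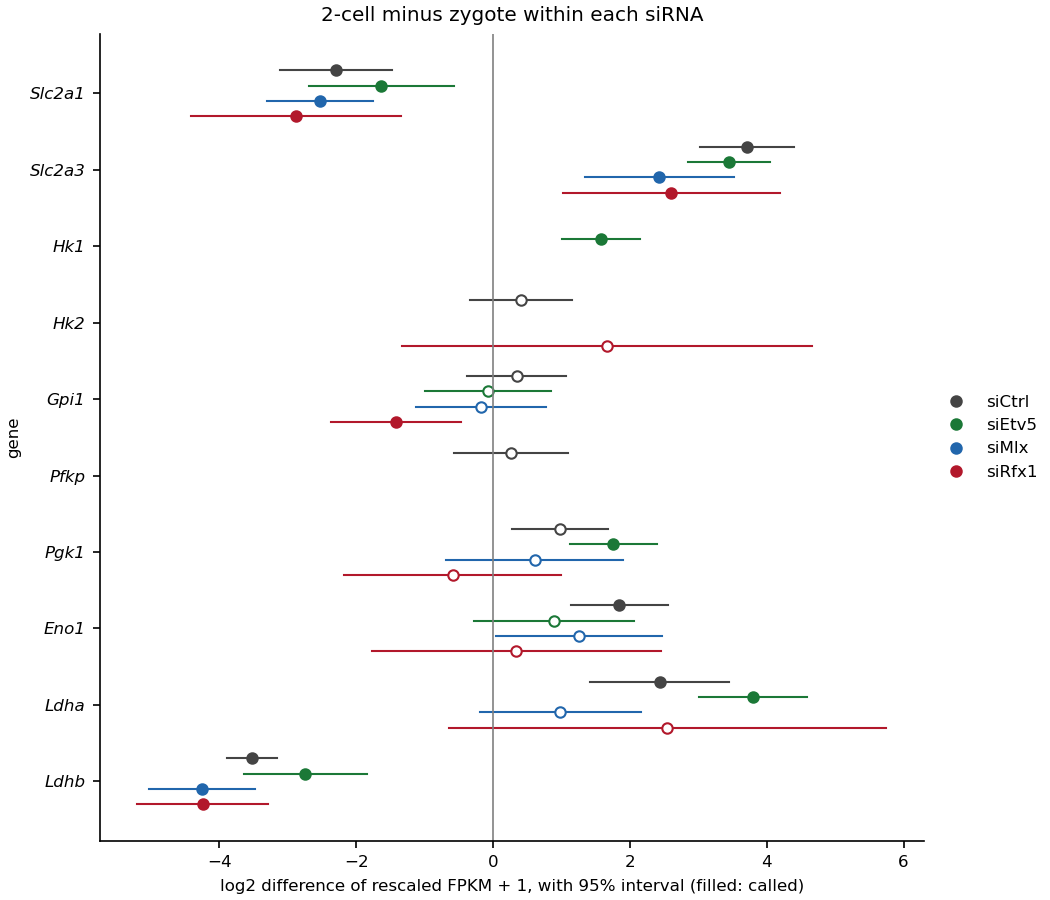
Log2 difference of rescaled FPKM + 1, 2-cell minus zygote, on the x axis for each gene tested within each siRNA, with 95% intervals as lines and filled points where a gene was called. The Slc2a1 and Ldhb points lie left of 0 and the Slc2a3 points right of 0 for all 4 siRNAs, while Gpi1 is filled for siRfx1 only, at -1.42.

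By the mean of the FPKM as deposited, Ldhb was highest in siCtrl zygotes (475 FPKM), followed by siRfx1, siMlx and siEtv5 zygotes (459, 412 and 378 FPKM), whose libraries overlapped each other in that order. Then came siEtv5, siCtrl, siRfx1 and siMlx 2-cell embryos (63.6, 48.2, 30.02 and 27.0 FPKM). Rescaled within a comparison, the mean was 461 in siMlx against 421 in siCtrl zygotes, 479 in siRfx1 against 445 in siCtrl zygotes, and 38.7 in siRfx1 against 38.1 in siCtrl 2-cell embryos, so the order within a stage depends on the scale. In this order the step from zygotes to 2-cell embryos and that from siEtv5 to siCtrl 2-cell embryos were free of overlap. For Slc2a3 the order on the same deposited scale was siCtrl, siEtv5, siRfx1 and siMlx 2-cell embryos (14.9, 11.8, 7.78 and 6.42 FPKM), each overlapping the next, and then the zygote groups without overlap. For Slc2a1 every neighbour overlapped the next, from siEtv5 zygotes at 18.3 FPKM to siMlx 2-cell embryos at 1.03 FPKM.

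KD of the 3 factors was compared with siCtrl at the same stage, which asks whether these transcripts depend on a factor. The 3 KD groups of a stage share the siCtrl libraries, so that a control that stands off moves all of them. In zygotes 5 members were tested, namely Slc2a1, Gpi1, Pgk1, Eno1 and Ldhb, and limma called 0 of 5 for siEtv5 (0% of all genes), 0 of 5 for siMlx (2.15% of all genes) and 0 of 5 for siRfx1 (0.0557% of all genes). At an unadjusted p under 0.05 there were 0, 1 and 0 members, beside 12.4, 24.7 and 14.6% of all genes. The other members lay under the filter, with Slc2a3 and Hk1 at no more than 0.271 FPKM and Ldha, Hk2 and Pfkp at no more than 1.46 FPKM in any zygote library.

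In siMlx zygotes Slc2a1 was the 1 member of 5 at an unadjusted p under 0.05, beside 24.7% of all genes. The siMlx libraries gave 10.1, 5.63 and 9.84 FPKM and the siCtrl libraries 17.1, 16.5 and 19.6 FPKM, and every siMlx library was below every control. After rescaling the log2 difference was -0.69 (SE 0.23, 95% interval -1.21 to -0.17, unadjusted p = 0.015, adjusted p = 0.12 from limma). With the FPKM as deposited it was -1.01 and was called (adjusted p = 0.034 from limma), but on that scale the median of all genes was -0.27 in this comparison, against 0.03 after rescaling. The 8 oocyte and zygote markers summed to 11481 to 18543 FPKM in siMlx zygotes against 8602 to 12143 FPKM in siCtrl zygotes. Of these 8, Bmp15 and Oog1 were called higher with siMlx. The 2-cell markers summed to 33.7 to 51.0 FPKM in siMlx zygotes against 20.9 to 32.8 FPKM in siCtrl zygotes. Of the 5 of them tested, Zscan4c alone was called higher. The 3′ share of Slc2a1 was 55.4 to 75.9% in siMlx zygotes and 80.9 to 85.4% in siCtrl zygotes. The part of these markers or of the 3′ share in the Slc2a1 value was not tested. Ldhb in siMlx zygotes was at 466, 275 and 496 FPKM, within the range of the other zygotes, with a rescaled difference of 0.11 and an interval of -0.45 to 0.67, although its mean as deposited was lower than with siCtrl (412 against 475 FPKM).

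In siEtv5 and siRfx1 zygotes the member differences from siCtrl ran from -0.22 to 0.65 and from -0.22 to 0.51. The widest interval reached 1.53 for Eno1 in siEtv5 zygotes, so that a 2-fold rise lies within it.

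In 2-cell embryos more members were tested and the spread was larger. Limma called 0 of 10 members for siEtv5 (0.251% of all genes), 0 of 9 for siMlx (0.00945% of all genes) and 0 of 10 for siRfx1 (3.56% of all genes), with 0, 1 and 1 members at an unadjusted p under 0.05, beside 15.5, 18.7 and 23.2% of all genes. The member not tested for siMlx was Pfkp, whose mean over the compared libraries lay under the filter. It was at 0.154, 0 and 0 FPKM with siMlx, on 248 aligned bases or fewer. With siCtrl it was at 1.18, 2.46 and 0.803 FPKM, so every siMlx library was below every control. With siMlx the members leaned lower without being called, at a median of -0.60 over the 9 members and -0.05 over all genes. Among the lists described below, the median was -0.69 for other glycolysis enzymes and -0.83 for glycogen and gluconeogenesis, against 0.35 for the hexosamine pathway. It was -0.34 for the pentose phosphate pathway, -0.12 for pyruvate and lactate use, 0.003 for other sugar transporters and -0.93 for Txnip and Arrdc4. The lean was thus seen in some of the other lists and was weaker or absent in others. Ldha had the lowest unadjusted p, at 0.668, 2.52 and 6.67 FPKM with siMlx and 15.1, 7.60 and 6.45 FPKM with siCtrl (log2 difference -1.35, SE 0.54, unadjusted p = 0.036, adjusted p = 0.24 from limma). Slc2a3 was at 1.36, 8.21 and 9.68 FPKM, each below the siCtrl libraries (difference -1.14, adjusted p = 0.27 from limma), and Ldhb at 20.6, 24.4 and 35.9 FPKM, also each below them (difference -0.60, adjusted p = 0.27 from limma). Replicate 1 was the lowest siMlx library for these 3 genes. It was also the shallowest of its group at 404 Mb, and the 2-cell markers summed to 67.2 to 240 FPKM with siMlx against 305 to 397 FPKM with siCtrl. The 12 cumulus and granulosa markers summed to 0.596 to 3.25 FPKM with siMlx against 12.7 to 16.7 FPKM with siCtrl, where only 3 of the 12 reached 1 FPKM. Among them, Tnfaip6 averaged 9.82 rescaled FPKM in siCtrl 2-cell embryos and 0.186 in siCtrl zygotes. Its stage difference was called lower with siMlx than with siCtrl (-2.88, adjusted p = 0.027 from limma), so the sum rests on few genes and moves with stage. The part of depth, of stage or of these markers in the values was not tested.

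With siEtv5 the 2-cell markers summed to 752 to 824 FPKM against 305 to 397 FPKM with siCtrl. Of the 5 of them tested, Gm5039 alone was called higher. The sum of the 8 oocyte and zygote markers was also higher, at 6627 to 6911 against 3159 to 4774 FPKM. The part of these markers in the values was not tested. Member differences from siCtrl ran from -0.42 to 0.91, and none was called. Both lactate dehydrogenases lay on the higher side, with the Ldha libraries overlapping those of siCtrl. Ldhb was at 63.8 and 63.4 FPKM and above every siCtrl library (log2 difference 0.41, 95% interval -0.04 to 0.85, adjusted p = 0.36 from limma), and Ldha was at 22.8 and 14.0 FPKM (0.91, interval -0.06 to 1.88, adjusted p = 0.35 from limma). Pgk1 was at 10.6 and 12.7 FPKM against 10.1, 4.86 and 7.39 FPKM (0.64, adjusted p = 0.45 from limma).

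The siRfx1 2-cell libraries, the shallowest of all, differed widely from each other, and their 2-cell markers summed to 90.1 to 174 FPKM against 305 to 397 FPKM with siCtrl. Of the 8 oocyte and zygote markers, Gdf9, Oog1 and Zar1 were called higher there (5.22, 6.04 and 13.9-fold in rescaled FPKM). The part of depth and of these markers in the values was not tested. Hk2 was at 34.9 FPKM in replicate 1, 0 in replicate 2 and 2.26 FPKM in replicate 3, Ldha at 43.8, 0 and 12.3 FPKM, and Eno1 at 33.6, 4.37 and 3.06 FPKM. Pgk1 was at 0, 3.55 and 2.06 FPKM, so replicate 1 was high for some members and listed at 0 for another. Gpi1 was at 1.23, 0.794 and 0 FPKM, each below the siCtrl libraries at 3.39, 5.56 and 8.02 FPKM (log2 difference -1.60, SE 0.64, unadjusted p = 0.038, adjusted p = 0.19 from limma). The 95% intervals of the 10 members in this comparison reached from -3.13 to 4.29, so that many changes of 2-fold could be missed at this spread among libraries.

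Whether KD altered the stage difference itself was tested as an interaction. Limma called 0 of 8 members for siEtv5 (0.316% of all genes), 0 of 7 for siMlx (1.16%) and 0 of 8 for siRfx1 (9.96%), with 1, 0 and 1 members at an unadjusted p under 0.05, beside 18.1, 16.1 and 27.1% of all genes. Gpi1 had 609 aligned bases or fewer in the siRfx1 2-cell libraries. Its stage difference was lower with siRfx1 than with siCtrl by 1.64 on the log2 scale, an interaction of -1.64 (SE 0.53, unadjusted p = 0.010, adjusted p = 0.072 from limma). It was called with the FPKM as deposited (-1.86, adjusted p = 0.041 from limma), without 2-cell siRfx1 replicate 1 (-1.92, 0.026) and without replicate 2 (-1.76, 0.046). Without replicate 1, which had the high value, Eno1 was also called (-2.21, adjusted p = 0.018 from limma), and without replicate 3 Slc2a3 was (-1.45, adjusted p = 0.033 from limma). Ldha had the largest interaction for siEtv5, 1.31 (95% interval 0.01 to 2.60, adjusted p = 0.27 from limma), and for siMlx it was -1.32 (interval -2.89 to 0.26, adjusted p = 0.40 from limma).

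Other enzymes of the pathway, from a list of 30 genes with 28 in the files, were tested in siCtrl embryos to place the members. Of 14 tested, 5 were higher and 2 lower in 2-cell embryos, beside 37.0% higher and 26.9% lower over all genes. Pgam1, the phosphoglycerate mutase of most tissues, was at 6.27 ± 1.10 rescaled FPKM in zygotes and 108 ± 14.4 in 2-cell embryos (SD, n = 3 each), a rise of 3.91 (adjusted p = 4.7e-06 from limma). Pgam2, the muscle form, was listed at 0 in the 3 zygote libraries and was at 16.8 to 25.3 FPKM in 2-cell embryos. Bpgm, bisphosphoglycerate mutase, fell from 836 ± 35.2 to 159 ± 10.5 rescaled FPKM (log2 difference -2.39, adjusted p = 4.1e-06 from limma), from a zygote level above that of Ldhb. Beyond the largest changes, the following 3 were picked after their values were seen. Tpi1, triosephosphate isomerase, fell from 47.1 ± 9.67 to 10.3 ± 2.99 rescaled FPKM (-2.11). Pkm, pyruvate kinase, rose by 0.91, under the fold, and Gapdh differed by 0.12 with an adjusted p of 0.68 from limma.

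Of 3 other sugar transporters tested, from a list of 12, Slc2a8 and Slc2a4 were higher and Slc2a12 lower in siCtrl 2-cell embryos. This stands beside 37.0% higher and 26.9% lower over all genes. Slc2a8 and Slc2a4 passed the filter only through the 2-cell libraries. Named after their values were seen, Slc2a9, Slc2a10 and Slc2a13 were untested and without overlap lower in siCtrl 2-cell embryos. They averaged 1.45, 1.45 and 0.667 rescaled FPKM in zygotes and 0.210, 0.152 and 0.0361 in 2-cell embryos. The other untested transporters overlapped. Slc2a8, an intracellular hexose transporter, was listed at 0 in all siCtrl zygotes and was at 9.55 to 16.7 FPKM in siCtrl 2-cell embryos, a pattern like that of Slc2a3. In the other zygotes it reached at most 0.148 FPKM, and in the other 2-cell embryos it was at 3.02 to 18.1 FPKM.

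Of 15 genes of pyruvate and lactate use tested, from a list of 22, 6 were higher and 4 lower in siCtrl 2-cell embryos, again about the share over all genes (63.9% called). Mpc2, a subunit of the mitochondrial pyruvate carrier, rose from 10.4 ± 1.92 to 245 ± 55.3 rescaled FPKM (log2 difference 4.42, adjusted p = 4.7e-06 from limma), Pdhb, a pyruvate dehydrogenase subunit, rose by 3.44 (adjusted p = 7.2e-06) and Pdp2, the phosphatase that activates that complex, by 4.59 (adjusted p = 4.0e-06). Chosen after their values were seen, Dlat and Slc16a1 show both directions. Dlat, another subunit of the complex, fell from 9.95 ± 2.12 to 0.499 ± 0.657 rescaled FPKM (-2.94), and Slc16a1, the lactate transporter MCT1, rose from 8.66 ± 2.31 to 49.96 ± 0.458 rescaled FPKM (2.42).

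**Figure D4:**
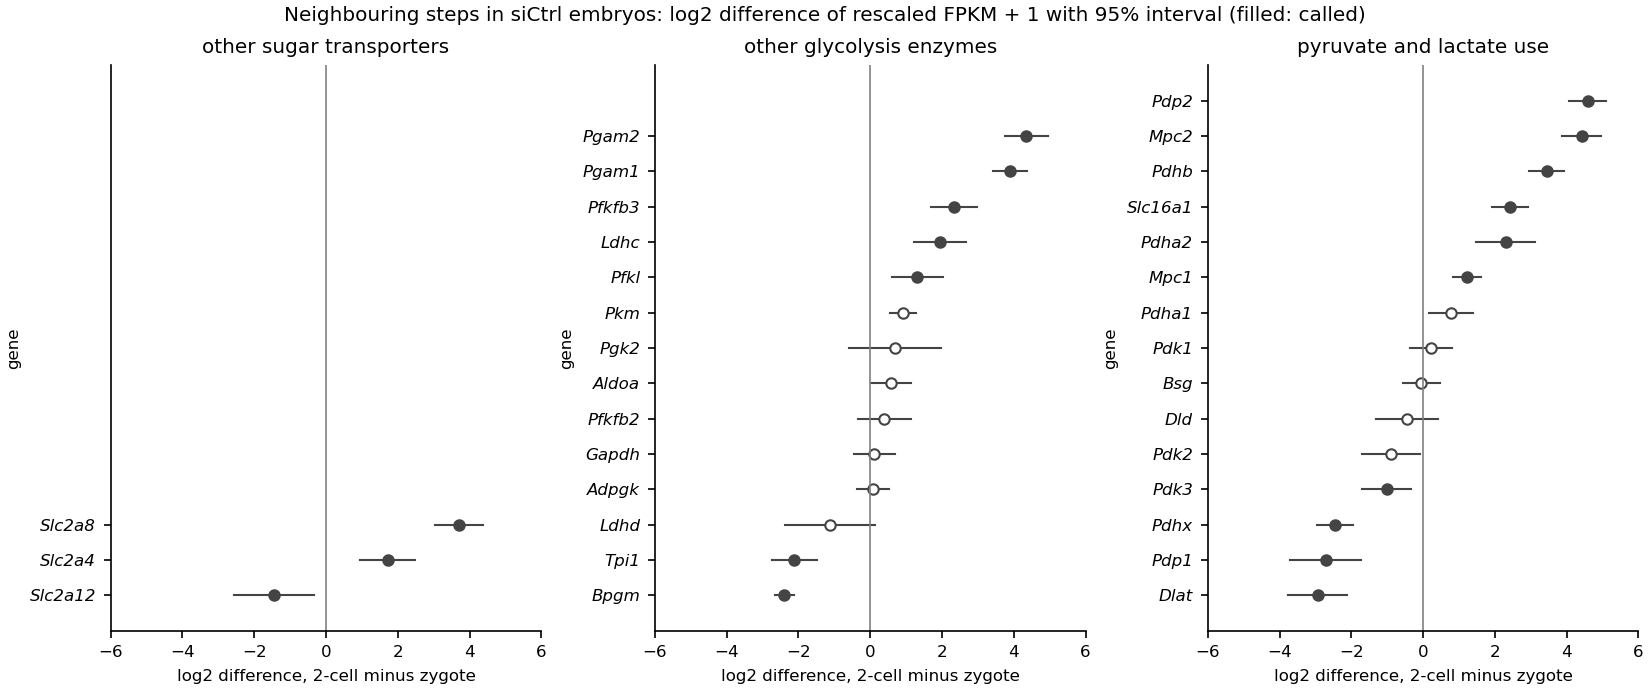
Log2 difference of rescaled FPKM + 1, 2-cell minus zygote, on the x axis in siCtrl embryos for tested genes of 3 lists on the y axis, with 95% intervals as lines and filled points where a gene was called. Pdp2, Mpc2, Pgam2 and Pgam1 lie furthest right, and Dlat lies furthest left.

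In the branches off glycolysis, 4 pentose phosphate genes were higher and 2 lower of 8 tested. This and the next counts stand beside the same 37.0% higher and 26.9% lower over all genes, on few genes each. Taldo1, transaldolase, was listed at 0 in siCtrl zygotes and averaged 27.9 ± 4.55 rescaled FPKM in siCtrl 2-cell embryos (SD, n = 3). Tktl1, a transketolase-like gene, averaged 0.765 and 38.3 rescaled FPKM, and both passed the filter only through the 2-cell libraries. Pgd, the second oxidative enzyme, rose by 3.29 (adjusted p = 8.7e-06 from limma). G6pdx, glucose phosphate dehydrogenase, named after its values were seen, fell from 137 ± 29.6 to 15.1 ± 3.27 rescaled FPKM (log2 difference -3.10). Of 10 glycogen and gluconeogenesis genes, 0 were higher and 3 lower, led by Fbp1, fructose bisphosphatase, with -4.10 (adjusted p = 7.5e-06 from limma) and followed by Gyg, glycogenin, with -2.84 and Gbe1, the glycogen branching enzyme, with -1.48 (adjusted p = 0.0030 from limma). Of 6 hexosamine pathway genes, 3 were higher and 0 lower, namely Uap1 with 3.68 (adjusted p = 5.9e-06 from limma), Pgm3 with 3.48 and Ogt, which attaches the sugar to proteins, with 1.65.

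Over the 6 KD comparisons 2 genes of these lists were called, in comparisons with 2.15% (siMlx zygotes) and 3.56% (siRfx1 2-cell embryos) of all genes called. Pgd was lower in siMlx zygotes, at 1.18 to 1.56 FPKM against 4.84 to 6.61 FPKM (log2 difference -1.31, SE 0.22, adjusted p = 0.037 from limma), and Rpia, which isomerizes ribose phosphate, was higher in siRfx1 2-cell embryos, at 31.1 to 44.3 FPKM against 1.90 to 10.99 FPKM (3.16, SE 0.63, adjusted p = 0.041 from limma). Txnip, a glucose-responsive target of MLX and its partners that encodes an inhibitor of glucose uptake, was at 39.9, 25.9 and 30.8 FPKM in siMlx zygotes and at 92.8, 80.1 and 65.9 FPKM in siCtrl zygotes. The groups did not overlap, and the log2 difference of -0.94 missed the threshold (SE 0.21, adjusted p = 0.052 from limma). In siEtv5 zygotes Txnip was at 39.7, 37.7 and 21.3 FPKM (-1.11, adjusted p = 0.32 from limma), also below every control. In the interaction for siRfx1, Rpia (3.68), Mgea5 (3.01), Pdhx (2.13), Mpc1 (-2.45) and Mpc2 (-1.47) were called, beside 9.96% of all genes, and for siMlx Gfpt1 (1.66, adjusted p = 0.044 from limma).

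The genes with the pattern most like that of a member over the 23 libraries were found by Pearson's r of log2(rescaled FPKM + 1) among 6942 genes at a mean of 5 rescaled FPKM or more. They are a description, since the libraries share stage, which alone aligns many genes. For Ldhb they were Oas1c (r = 0.991) and Rab3b (0.988), for Slc2a3 Stk17b (0.975), and for Slc2a1 Klf7 (0.961) and Psmd9 (0.954). For Ldha they were Hmbox1 (0.895) and Arhgef26 (0.893), and for Hk1 Morc2a (0.923) and 4831440E17Rik (0.918). Hk2 was nearest to Afg3l1 (0.905) and Gmfb (0.898), Gpi1 to Acpp (0.841) and Vps25 (0.839), Eno1 to Setd1a (0.857) and Pmvk (0.795), Pgk1 to Fam192a (0.822) and Lyrm1 (0.814), and Pfkp to Tuba1c (0.696) and Neurog3 (0.684).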

How the data were processed

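RNA of 23 embryo libraries was reverse-transcribed from oligo-dT, amplified, sheared and sequenced without strand information. According to the submitters' notes and the study's methods, the authors aligned reads with STAR 2.5.2b to mm9 and ran StringTie on RefSeq transcripts (1.3.3b in the file headers, 1.3.4 in the notes). The deposited files give FPKM and coverage, the signal per base, for each transcript. The handling of multi-mapped reads is not given in the sources used here.

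FPKM were summed per gene, and aligned bases were taken from coverage over FPKM. Samples were grouped by the stage and siRNA in their labels. Within each of 13 comparisons the libraries were rescaled by median ratio over genes of at least 1 FPKM in every library, a gene was kept at a mean of 1 or more, and log2(FPKM + 1) was tested with limma 3.58.1 in R 4.3.3 (empirical Bayes with a trend, two-sided, Benjamini-Hochberg over all genes tested). Calls needed a fold above 2 with an adjusted p under 0.05. The fit was tested on simulated data. FPKM carry no counting intervals, so precision rests on replicates and on aligned bases. Copies were sought with minimap2 2.31, over alignments covering most of a transcript.

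The 10 members, the pathway lists and the marker lists were chosen with earlier results of these data known. All members are named, and of each list up to 3 genes with the largest change among those called, or the lowest p where none was called (given for Txnip only). Genes named beyond that rule are marked in the text, and 1 gene that the rule names is not reported here. Alternatives were a pseudocount of 0.1, no filter, deposited FPKM, all groups in a single fit, a replicate block, no fold minimum, siEtv5 as the control, shares of aligned bases, each library left out, and, chosen after seeing the data, Eno1 summed with Gm5506.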

Additional observations from a re-analysis of the deposited data

How the results depend on the processing

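No called stage difference of a member changed sign under the alternatives run. Differences that were not called were not followed one by one. Among the counts of members called, 177 alternative values stayed close to those given and 11 moved. With the FPKM as deposited, 1 member (Slc2a1) was called in siMlx zygotes, 5 between the stages within siMlx, and 1 in the siRfx1 interaction. Leaving out 1 library at a time gave 5 to 6 members called between the stages within siCtrl, 4 to 7 within siEtv5, 3 to 5 within siMlx, 1 to 5 within siRfx1, 0 to 2 in the siRfx1 interaction, and 0 in the 6 knockdown comparisons and the other interactions. Within siMlx the count was 5 without zygote replicate 1 (Eno1 and Hk1 added) and 5 without 2-cell replicate 1 (Eno1 and Ldha added). Within siRfx1 the count was 2, 1 and 1 without zygote replicate 1, 2 and 3. Taken from aligned bases, the 2-cell siEtv5 shares were 71.4% for Ldhb and 75.9% for Slc2a3. The causes were not tested.

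Deviations of same-numbered siCtrl and KD libraries of a stage had correlations of -0.131 to 0.187. Differently numbered libraries and libraries of different stages were not compared in this way, so this does not settle whether the numbers pair libraries. With the replicate block, 5, 6, 4 and 3 members were called between the stages within siCtrl, siEtv5, siMlx and siRfx1, and 0 in the knockdown and interaction comparisons. Eno1 within siMlx was gained and Gpi1 within siRfx1 was lost, as it was with a pseudocount of 0.1. The share of higher calls over all genes went from 52.6 to 10.4% in siMlx zygotes and from 59.4 to 11.1% in siRfx1 2-cell embryos when FPKM were not rescaled. The siRfx1 2-cell libraries had the lowest depth, at 119 to 174 Mb, and the part of depth in their values was not tested.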

Other observations

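Arrdc4, which like Txnip encodes an arrestin-family inhibitor of glucose uptake, had the opposite order of levels between the stages. It was at 0.235, 0 and 0.102 FPKM in siCtrl zygotes and at 12.3, 10.6 and 9.19 FPKM in siCtrl 2-cell embryos and passed the filter only through the latter. Txnip was at 92.8, 80.1 and 65.9 FPKM in siCtrl zygotes and at 22.9, 21.6 and 21.9 FPKM in siCtrl 2-cell embryos (log2 difference -2.04). The libraries of the stages did not overlap for either gene.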
